A study of Mus musculus with 2 samples.

Results

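The killer cell lectin-like receptor genes of the mouse, Klra to Klrk, were followed in immune cells of the cecum by single-cell RNA sequencing. All gene symbols beginning with Klr and a letter from a to k were taken, pseudogenes left out, if they had at least 20 unique molecular identifiers (UMIs, each standing for 1 captured RNA molecule) over all cell barcodes. All 27 such symbols met the rule, out of 22411 gene symbols in the file that had at least 20 UMIs. Their totals ran from 35 UMIs for Klra10, the member nearest to the limit, to 17253 for Klrd1, and no symbol lay below the limit; 4 pseudogenes were left out by name. The study sorted CD45+ cells, which are cells of blood origin, from the cecum of male mice aged 101 days and asked how activation of neurons that carry the channel Trpv1 affects them. There were 2 mice labelled Trpv1-ADC and 2 littermates labelled CTRL. The labels give the same treatment for all 4, an AAV vector given intraperitoneally to neonates and 7 injections of CNO, the ligand of designer receptors, on alternate days, and 2 strains, Trpv1-WT.B6 along with Trpv1-Cre.B6, not tied to single mice. What the vector carried, and which cells other than Trpv1 neurons could express it, are not given in the sources used here. Nothing but the mouse numbers tells the animals of a group apart, and all 4 were run together in 1 droplet library with a hashtag antibody per mouse.

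Killer cell lectin-like receptors sit on natural killer cells and on some T cells and other leukocytes, and they set how readily these cells respond. Inhibitory members carry a motif that recruits phosphatases when they meet a ligand such as a class I MHC molecule, whereas activating members pair with adaptor proteins that recruit kinases. In the gut they are known from intraepithelial T lymphocytes, natural killer cells and other innate lymphoid cells, which lie in or under the epithelium.

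After filters and removal of doublets 17519 cells were kept, 4430 and 4531 of Trpv1-ADC mice 1 and 2 and 4393 and 4165 of CTRL mice 1 and 2. The median depth was 5573 and 5654 UMIs per cell in the Trpv1-ADC mice and 5689 and 5553 in the CTRL mice. Cells were clustered without any Klr gene and named from marker lists that hold no Klr gene, and 14 classes with at least 20 cells in every mouse were compared. Class names carry "-like", since they rest on markers. Among cells of the class called natural killer cell or ILC1-like, 8 to 10 of 10 markers of that class were detected in each cluster, and the clusters led with Ncr1, Tyrobp, Gzmc, Xcl1 or Irf8. Intraepithelial-type T cell-like cells led with Cdh1, Cd7, Cd160 and Trgc2 in cluster T3 and with Gzma, Gzmb, Ccl5, Itga1 and Itgae in cluster T9. The smallest sum of a class in a mouse held 261452 UMIs and the largest 5638578, and a level from a small sum is less precise.

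All 27 members lie on chromosome 6, and 25 of them lie within 2.64 Mb between Klrb1a and Klra2 (GRCm38, GENCODE vM21). Klrg1 and Klrg2 lie apart from that stretch. Copies within the family are alike. For 7 members, Klrc1, Klrc3, Klra3, Klra8, Klra9, Klra10 and Klrb1b, over 20% of the 50-base words of their annotated exons also occur in another gene, so reads could have been given to a relative or dropped. Klrc1 shared 38.6% of its words, most of them with Klrc2, and Klra10 shared 39.8%. For 9 members, Klrd1, Klrk1, Klrh1 and Klrg1 among them, no word was shared. Klrb1f and Klra17 overlap genes of the other strand, and Klrb1b and Klrb1c overlap Gm44511 on their own strand.

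The windows of 250 bases before the transcription start are shown for members on which the comparisons turn, Klre1 and Klrh1, and for the neighbours Klrc1, Klrc2 and Klrc3, so that the near-copies whose levels are compared can be seen. Each is written 5′ to 3′ on the strand of the gene, from RefSeq on GRCm38.p6, at chr6:129577963-129578212 (plus strand) for Klre1, chr6:129784271-129784520 (minus) for Klrh1, chr6:129678974-129679223 (minus) for Klrc1, chr6:129660557-129660806 (minus, the second listed start) for Klrc2 and chr6:129643289-129643538 (minus) for Klrc3. Capitals mark the RUNX core TGTGGT or its reverse complement ACCACA, and the T-box core AGGTGT or ACACCT.
Klre1: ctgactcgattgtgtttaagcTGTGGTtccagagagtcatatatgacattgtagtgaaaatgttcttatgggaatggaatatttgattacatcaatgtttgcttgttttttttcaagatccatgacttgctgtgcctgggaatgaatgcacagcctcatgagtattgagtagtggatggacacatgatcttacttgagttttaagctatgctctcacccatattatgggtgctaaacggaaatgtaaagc
Klrh1: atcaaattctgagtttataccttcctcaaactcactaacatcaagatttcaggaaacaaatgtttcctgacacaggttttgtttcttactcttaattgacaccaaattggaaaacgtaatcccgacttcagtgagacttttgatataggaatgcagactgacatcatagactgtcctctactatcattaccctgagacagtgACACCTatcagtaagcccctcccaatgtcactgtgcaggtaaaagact
Klrc1: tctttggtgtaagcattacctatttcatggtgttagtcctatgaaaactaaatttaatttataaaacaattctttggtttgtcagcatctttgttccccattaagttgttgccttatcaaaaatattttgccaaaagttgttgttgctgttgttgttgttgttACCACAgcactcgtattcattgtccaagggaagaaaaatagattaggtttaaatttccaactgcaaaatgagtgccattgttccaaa
Klrc2: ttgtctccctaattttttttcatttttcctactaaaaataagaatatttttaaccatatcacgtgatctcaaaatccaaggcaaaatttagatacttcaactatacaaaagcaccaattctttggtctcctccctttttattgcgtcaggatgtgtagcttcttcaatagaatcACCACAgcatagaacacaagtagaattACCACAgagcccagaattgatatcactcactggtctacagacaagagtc
Klrc3: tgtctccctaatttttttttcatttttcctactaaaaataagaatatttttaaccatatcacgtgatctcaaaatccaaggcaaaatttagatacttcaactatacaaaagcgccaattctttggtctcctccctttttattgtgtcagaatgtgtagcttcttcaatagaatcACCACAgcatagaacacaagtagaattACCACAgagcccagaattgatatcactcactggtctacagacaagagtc

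Aligned end to end, the Klrc2 window at its second listed start and the Klrc3 window had 98.0% identical columns. The window at the first listed start of Klrc2 had 70.8% with Klrc3, and Klrc1 had 52.6% with Klrc3. The RUNX core, on either strand, stood in 8 of the 24 members with a listed promoter (33.3%) and in 14.0% of 32851 promoters of the same length. Klrc2 and Klrc3 held 2 each and Klrc1, Klre1 and Klrk1 held 1 each, though in Klre1 the window of the other listed start held none. The T-box core stood in 2 of 24 (8.33%), Klrb1 and Klrh1, against 11.8% of all promoters. These are letter matches in a window and not binding sites.

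Natural killer cell or ILC1-like cells carried most transcripts of the family, as UMIs per 1000000 UMIs of the summed cells (CPM). The 27 members summed to 3408 and 3260 CPM there in the Trpv1-ADC mice and 3237 and 3439 CPM in the CTRL mice. ILC3-like cells came next with 1907 and 1499 CPM in Trpv1-ADC mice and 1819 and 1796 CPM in CTRL mice. In intraepithelial-type T cell-like cells the sums were 1349 and 1563 CPM in Trpv1-ADC mice and 1516 and 1476 CPM in CTRL mice. B cell-like cells, which should lack most members, had 15 and 16 CPM in Trpv1-ADC mice and 20 and 22 CPM in CTRL mice. By weight of cells the order differed: intraepithelial-type T cell-like cells were 8.68% of all cells and held 25.8% of the members' UMIs, natural killer cell or ILC1-like cells were 2.93% of cells with 22.2% of UMIs, and memory CD8 T cell-like cells were 4.61% of cells with 17.5%. CPM of different genes are compared here as numbers of molecules captured, without regard to length, and capture can differ between genes.

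To compare how many cells showed a member, each cell was drawn down to 2000 UMIs, which left out 183 cells of Trpv1-ADC mice and 418 of CTRL mice below that depth. In B cell-like cells, with median depths of 4265 to 4430 UMIs per mouse, no member reached more than 0.702% of 2565 cells (Klrd1), and that share is taken as the background of free RNA. Median depths were 4938 to 5182 UMIs in intraepithelial-type T cell-like, 5380 to 6112 in natural killer cell or ILC1-like and 7217 to 7761 in memory CD8 T cell-like cells. Without the draw the shares were larger: 80.4% for Klrd1 in intraepithelial-type T cell-like cells, 86.9% for Klrk1 and 76.4% for Klrb1c in natural killer cell or ILC1-like cells, 44.6% for Klra7 in memory CD8 T cell-like cells, 88.8% for Klrb1b in ILC3-like cells, 67.4% for Klrg1 in ILC2-like cells and 42.7% for Klra2 in macrophage-like cells. Intervals given with shares are exact binomial (95%) and cover counting error only. Classes were made from the same cells, so differences between classes are described and not tested.

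**Figure D1:**
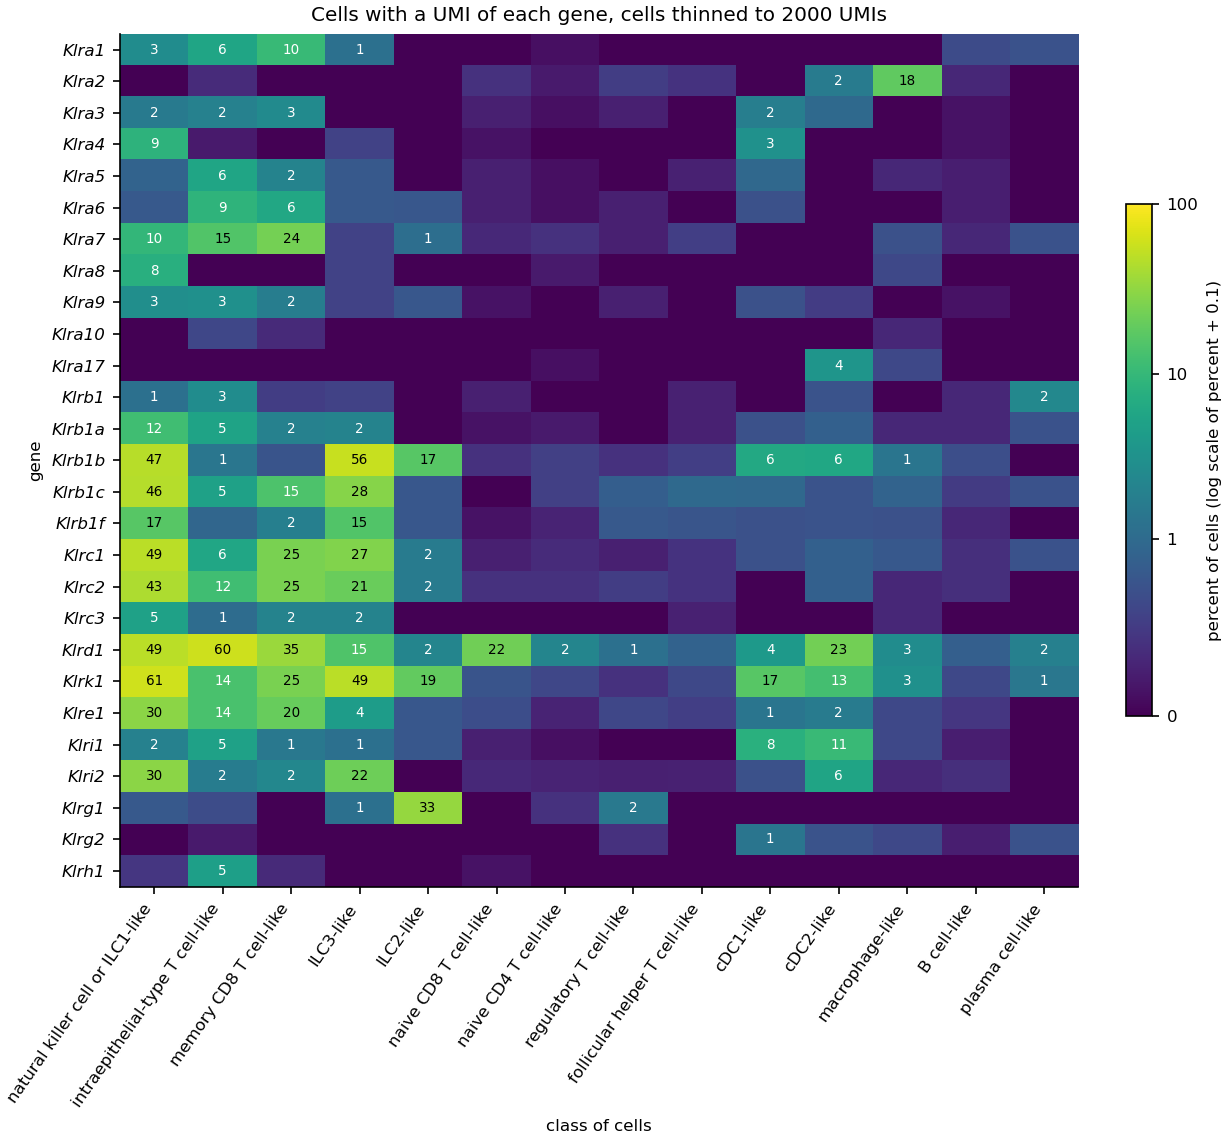
Percent of cells with at least 1 UMI of each of the 27 members (rows, in order of subfamily) in each of the 14 classes (columns), after each cell was drawn down to 2000 UMIs, over 4 mice. Klrk1 was seen in 61.0% and Klrc1 in 49.3% of natural killer cell or ILC1-like cells. Klrd1 was seen in 59.7% of intraepithelial-type T cell-like cells and in 245 of 505 natural killer cell or ILC1-like cells. Klra2 was seen in 18.5% of macrophage-like cells and Klrg1 in 33.3% of ILC2-like cells.

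Among the Klra genes, which encode the Ly49 receptors, some had most of their UMIs in 1 class and others were spread over several. Klra7 (Ly49G, inhibitory) averaged 178 CPM in memory CD8 T cell-like cells (range over 4 mice 141 to 225) and 158 CPM in intraepithelial-type T cell-like cells (145 to 175), ranges that overlap. It was seen in 23.8% of memory CD8 T cell-like cells (20.9 to 26.9) and 15.2% of intraepithelial-type T cell-like cells (13.5 to 17.2), against 0.117% of B cell-like cells. Klra1 (Ly49A, an inhibitory receptor for H2-D) was likewise highest in memory CD8 T cell-like cells at 69.7 CPM (40.3 to 92.6), followed by 42.4 CPM in intraepithelial-type T cell-like cells. In natural killer cell or ILC1-like cells Klra7 had 87.4 CPM and Klra1 14.8 CPM. Klra5 and Klra6, which encode Ly49E and Ly49F, had 70.2% and 58.5% of their UMIs in intraepithelial-type T cell-like cells, at 50.2 and 55.9 CPM.

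The activating receptors Klra4 (Ly49D) and Klra8 (Ly49H, which binds a protein of mouse cytomegalovirus) had 80.8% and 87.7% of their UMIs in natural killer cell or ILC1-like cells. There they averaged 94.5 CPM (72.9 to 121) and 90.9 CPM (45.8 to 120). Within that class they lay in cluster I6, whose leading genes include Itga2 and Prf1. Klra4 was seen in 42.3% of the 97 cells of I6 (32.3 to 52.7) and Klra8 in 34.0% (24.7 to 44.3). In cluster I0 neither was seen in any of 165 cells, with an exact upper limit of 2.21%. Inhibitory Klra7 was seen in 34.0% of the cells of I6 as well (24.7 to 44.3). Klra4 and Klra8 both pair with the adaptor Tyrobp, which was among the leading genes of I0 and I6 alike.

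Some Klra members were mostly found outside lymphocytes. Klra2 (Ly49B) had 82.9% of its UMIs in macrophage-like cells, at 113 CPM (85.7 to 136), and was seen in 18.5% of them (15.9 to 21.2). That share was 9.35% when cells were clustered at a resolution of 2, which draws the class differently. Klra17 (Ly49Q) had 73.3% of its UMIs in cDC2-like cells at 23.7 CPM (20.7 to 27.7), and was seen in 3.61% of them. Klra3 and Klra9 (Ly49C and Ly49I, inhibitory) stayed at or below 20.2 CPM in every class, and Klra10 at or below 1.82 CPM.

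Of the Klrb1 genes, which encode the NKR-P1 receptors, Klrb1b (inhibitory, a receptor for the product of Clec2d) was highest in ILC3-like cells at 415 CPM (337 to 457) and natural killer cell or ILC1-like cells at 360 CPM (316 to 477), ranges that overlap. It was seen in 55.9% of ILC3-like cells (50.4 to 61.3) and 46.9% of natural killer cell or ILC1-like cells (42.5 to 51.4). Within natural killer cell or ILC1-like cells it was seen in 63.6% of I0 (55.8 to 71.0) and 9.28% of I6 (4.33 to 16.9), the opposite order to Klra4 and Klra8. Klrb1c, an activating receptor used to mark natural killer cells in B6 mice, averaged 296 CPM (285 to 311) in natural killer cell or ILC1-like cells and 171 CPM (142 to 184) in ILC3-like cells, ranges apart. Klrb1f, also activating, stood at 85.0 and 83.5 CPM in these classes. Klrb1a averaged 77.0 CPM in natural killer cell or ILC1-like cells (67.0 to 82.7) and 36.6 CPM in intraepithelial-type T cell-like cells. Klrb1 (NKR-P1G, inhibitory) was highest in intraepithelial-type T cell-like cells at 15.3 CPM (13.2 to 19.5).

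The CD94 and NKG2 receptors were the most abundant. Klrd1 encodes CD94, the chain that joins an NKG2 protein to see the class I molecule H2-T23. It averaged 582 CPM (537 to 602) in intraepithelial-type T cell-like cells, 405 CPM (368 to 458) in natural killer cell or ILC1-like cells and 234 CPM (219 to 251) in memory CD8 T cell-like cells, with no overlap between the ranges. It was also seen in 22.2% of naive CD8 T cell-like cells (20.5 to 23.9), 22.9% of cDC2-like cells (18.9 to 27.2) and 2.21% of naive CD4 T cell-like cells (1.71 to 2.80), each above the 0.702% (0.416 to 1.11) of B cell-like cells.

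Partners of Klrd1 were spread otherwise. Klrc1 (NKG2A, inhibitory) and Klrc2 (NKG2C, activating) averaged 379 CPM (354 to 409) and 321 CPM (296 to 348) in natural killer cell or ILC1-like cells, where Klrc3 (NKG2E) had 30.8 CPM. In intraepithelial-type T cell-like cells, Klrc1 was seen in 5.85% of cells (4.72 to 7.16) and Klrc2 in 11.8% (10.2 to 13.5). Of cells with a Klrd1 UMI, 147 of 897 intraepithelial-type T cell-like cells also showed a Klrc UMI, against 158 of 245 natural killer cell or ILC1-like cells and 122 of 280 memory CD8 T cell-like cells. Because Klrc1, Klrc2 and Klrc3 share sequence, the split between them is uncertain. Klrk1 (NKG2D), the activating receptor for stress ligands such as the Raet1 proteins, averaged 553 CPM (461 to 637) in natural killer cell or ILC1-like cells and 434 CPM (371 to 569) in ILC3-like cells, ranges that overlap. It was seen in 61.0% of natural killer cell or ILC1-like cells (56.6 to 65.3), 49.1% of ILC3-like cells, 18.9% of ILC2-like cells and 16.6% of cDC1-like cells (11.9 to 22.2).

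Klre1 encodes a chain that pairs with the inhibitory Klri1 or the activating Klri2. It averaged 234 CPM (215 to 270) in natural killer cell or ILC1-like cells, 128 CPM (122 to 140) in memory CD8 T cell-like cells and 92.8 CPM (69.3 to 113) in intraepithelial-type T cell-like cells, and these ranges do not overlap. Its partners differed from each other. Klri2 was highest in natural killer cell or ILC1-like cells at 230 CPM (202 to 243), whereas Klri1 was highest in cDC2-like cells at 59.4 CPM (43.2 to 86.6) and seen in 10.6% of them (7.81 to 14.0). Klrg1, an inhibitory receptor for cadherins, had 51.5% of its UMIs in ILC2-like cells at 210 CPM (182 to 232), far above 13.8 CPM in regulatory T cell-like cells, the next class. Klrg2 did not exceed 3.72 CPM in any class. Klrh1 was the narrowest member: 93.6% of its UMIs lay in intraepithelial-type T cell-like cells, at 55.2 CPM (37.1 to 76.1), although just 4.86% of those cells showed it (3.83 to 6.07). B cell-like cells had a Klrh1 UMI in 0 of 2565 cells, with an exact upper limit of 0.144%.

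The share of cells that showed more than 1 Ly49 gene was higher in cluster I6 than in the other clusters and classes counted. Of its 97 cells, 74.2% showed at least 1 Klra gene and 45.4% at least 2. In I0, 1.21% of 165 cells showed 1, and 0 showed 2. Among 1503 intraepithelial-type T cell-like cells 31.8% showed at least 1 Klra gene and 7.78% at least 2, and among 802 memory CD8 T cell-like cells the shares were 35.5% and 9.98%. In B cell-like cells the share with at least 1 was 0.897%. At 4000 UMIs per cell the share with at least 2 was 15.8% in intraepithelial-type T cell-like cells and 13.6% in natural killer cell or ILC1-like cells. Reads of a Klra gene given to a relative would also appear as a combination. Klrc1 and Klrc2 were seen together in 128 of 505 natural killer cell or ILC1-like cells, Klrc1 alone in 121 and Klrc2 alone in 89.

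**Figure D2:**
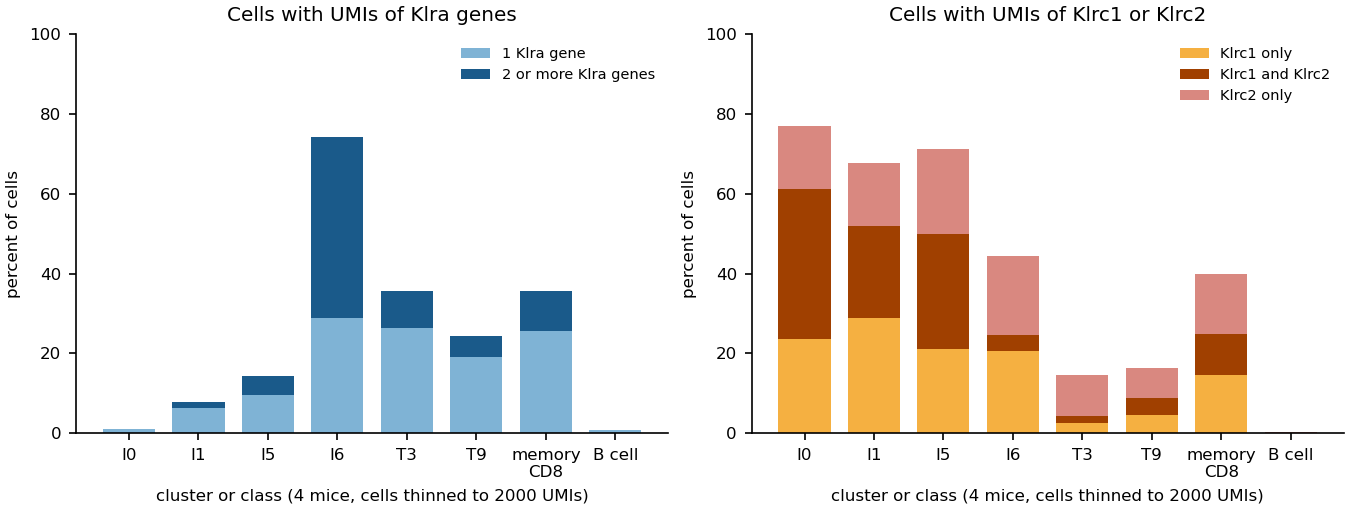
Percent of cells, over 4 mice and drawn down to 2000 UMIs, with UMIs of 1 or of at least 2 Klra genes, and with Klrc1 only, both, or Klrc2 only. Bars are stacked by cluster or class, and I6 stands out with 74.2% of cells showing at least 1 Klra gene.

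Over all sorted cells together, the family was lower in Trpv1-ADC mice. The 27 members summed to 325 and 334 CPM in the Trpv1-ADC mice, against 496 and 487 CPM in the CTRL mice. Counts were summed per mouse and tested with edgeR's quasi-likelihood test over 18783 genes, with Benjamini-Hochberg adjustment. Of 26 members tested, 2 fell and 0 rose at an adjusted p under 0.05, where 0.197% of all genes fell and 0.0479% rose. All 26 fitted log2 fold changes were below 0, as were 50.0% of those of all genes, and their median was -0.65, against 0.00 over all genes. In 23 of the 26 both Trpv1-ADC mice lay below both CTRL mice, as they did for 28.4% of all genes. The members share cells and are not independent of each other.

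Klrh1 fell most. It had 2.07 and 2.06 CPM in the Trpv1-ADC mice, against 6.96 and 6.79 CPM in the CTRL mice. The log2 fold change was -1.72 ± 0.17 (SE) with an edgeR adjusted p of 0.0457 (exact permutation over 2 against 2 mice cannot go below 0.333). Klrd1, the CD94 gene, fell to 84.7 and 81.4 CPM in the Trpv1-ADC mice, against 124 and 126 CPM in the CTRL mice. Its log2 fold change was -0.57 ± 0.06 (SE) with an edgeR adjusted p of 0.0460. For both genes the groups do not overlap. Both calls lie close to the threshold. Leaving out any single mouse ended them (0 members called without Trpv1-ADC mouse 1, Trpv1-ADC mouse 2, CTRL mouse 1 or CTRL mouse 2), with adjusted p of 0.0658 to 0.0960 for Klrh1 and 0.0701 to 0.0934 for Klrd1, while the log2 fold changes stayed between -1.73 and -1.71 and between -0.60 and -0.55. DESeq2 called 11 members of 25, all lower, where it called 2.85% of all genes lower. Without the robust fit or with a stricter cell filter, 0 members were called, and 0 and 6 of all genes were called lower.

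Shares of some classes moved with these sums, and those of others did not. Intraepithelial-type T cell-like cells were 6.37% and 4.63% of the cells of Trpv1-ADC mice 1 and 2, against 10.2% and 14.0% of CTRL mice 1 and 2. Natural killer cell or ILC1-like cells were 2.33% and 2.43% in the Trpv1-ADC mice, against 3.60% and 3.41% in the CTRL mice. Naive CD8 T cell-like cells, low in most members, were 14.9% and 20.1% in the Trpv1-ADC mice and 11.1% and 8.88% in the CTRL mice. In a sum over cells, fewer cells of a class and fewer transcripts per cell cannot be told apart, so the sums were computed again in other ways.

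With the same share of each cluster in every mouse, the family summed to 385 and 385 CPM in the Trpv1-ADC mice and 439 and 423 CPM in the CTRL mice, a log2 ratio of -0.16 in place of -0.58. With the level of each cluster held equal in all mice and the shares as measured, the log2 ratio was -0.42. For Klrd1 the log2 ratio was -0.59 as measured, -0.15 with equal shares and -0.45 with equal levels. Klrh1 kept more of its difference than Klrd1: -1.74 as measured, -0.72 with equal shares (2.88 and 3.52 CPM in Trpv1-ADC mice, against 6.03 and 4.53 CPM in CTRL mice) and -0.97 with equal levels. Some members kept a larger part than Klrh1. Klra1 was -1.01 as measured and -0.64 with equal shares, and Klrg1 was -0.89 and -0.60. Klrk1 was level with equal shares (log2 ratio 0.01). These are descriptions with no test.

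**Figure D3:**
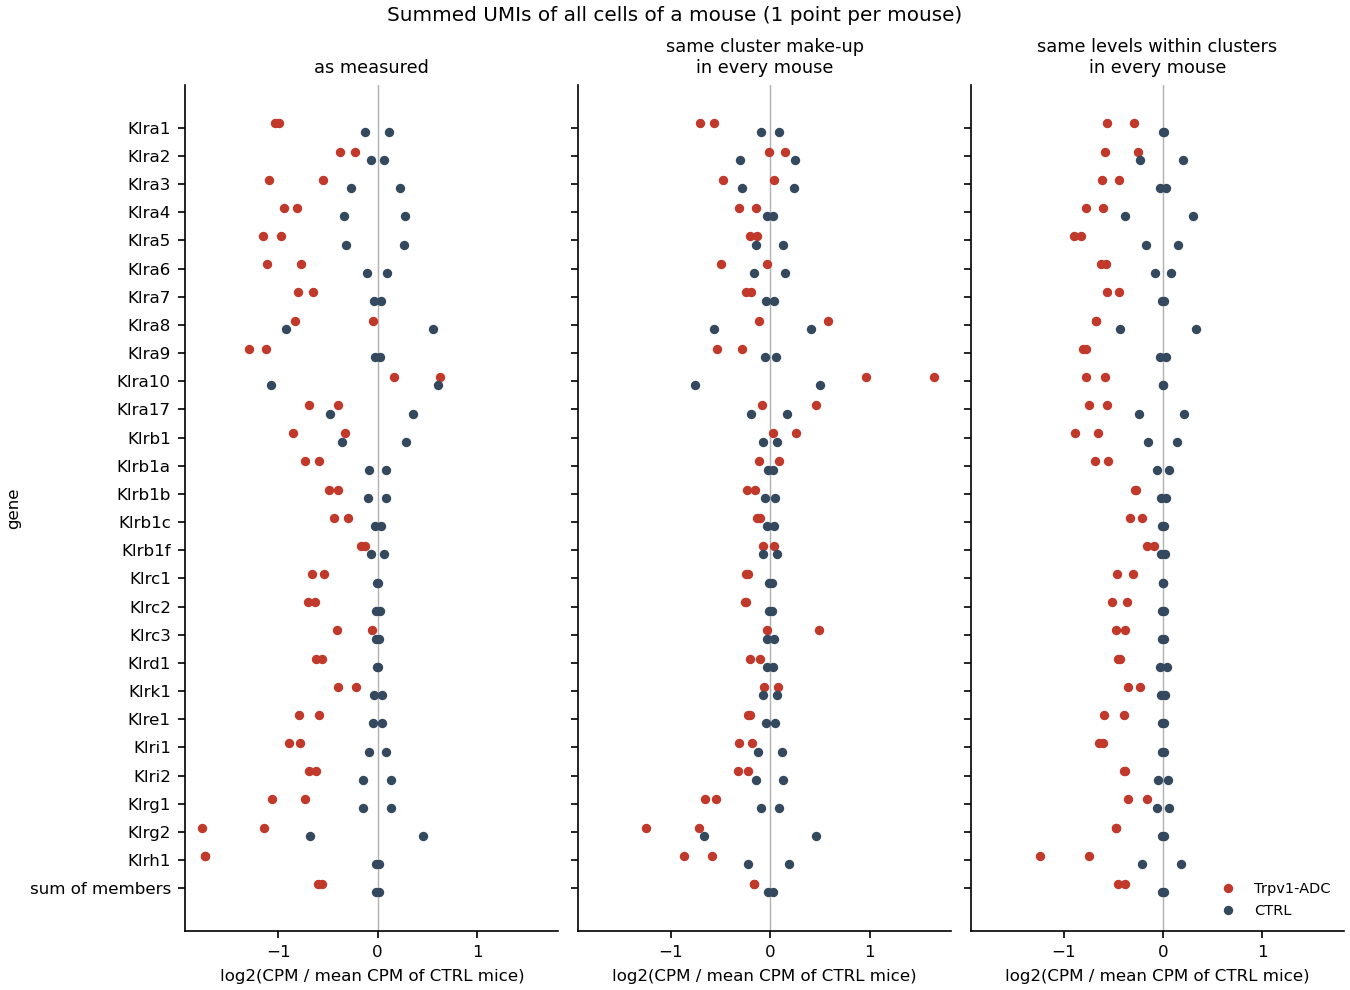
Level of the family and of members in each mouse as log2 of CPM over the mean of the CTRL mice (x axis, members down the y axis), as measured, with equal cluster shares, and with equal levels within clusters. The sum over members was -0.58 for Trpv1-ADC over CTRL as measured, -0.16 with equal shares and -0.42 with equal levels.

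Within intraepithelial-type T cell-like cells members differed in either direction, and 1 passed the test. The test covered 10345 genes, of which 3.97% fell and 3.91% rose. Among 19 members tested, 1 fell and 0 rose; 8 had a log2 fold change below 0 and 11 above, with a median of 0.07, against 0.01 over all genes. In 12 members the groups did not overlap, 7 lower and 5 higher in Trpv1-ADC mice, where 53.5% of all genes did not overlap. The class joins clusters T3 and T9, which differed from each other. In T9, fitted alone, 11 of 13 members were below 0, as were 50.5% of all genes, with a median of -0.37. The family summed there to 1085 and 1084 CPM in Trpv1-ADC mice and 1492 and 1362 CPM in CTRL mice, groups apart. In T3, 8 of 18 members were below 0 (49.3% of all genes), with a median of 0.03, and the sums were 1434 and 1768 CPM in Trpv1-ADC mice and 1530 and 1549 CPM in CTRL mice, which overlap. By edgeR 0 members passed in T9, where 1.75% of all genes did, and 5 had an unadjusted p under 0.05 (16.0% of all genes did). In T3 likewise 0 passed (5.91% of all genes did), and 3 had an unadjusted p under 0.05 (21.4%).

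Klre1 was the member that fell. Its levels were 69.3 and 85.1 CPM (99 and 96 UMIs) in the Trpv1-ADC mice, against 113 and 103 CPM (283 and 332 UMIs) in the CTRL mice. The log2 fold change was -0.56 ± 0.14 (SE), with an edgeR adjusted p of 0.0344. Both Trpv1-ADC mice lay below both CTRL mice. The call was lost without Trpv1-ADC mouse 1 (adjusted p = 0.0643), without CTRL mouse 1 (0.265) and without CTRL mouse 2 (0.127), with DESeq2 (0.162), with library size alone as the scaling (0.0591), with tag doublets alone removed (0.0820) and with Klr genes allowed in clustering (0.111), with the same direction each time. With library size alone Klrb1a passed in its place, higher (adjusted p = 0.0434), and 3.22% of all genes fell and 5.16% rose. Cluster T3 was 75.2% and 69.5% of the class in Trpv1-ADC mice and 63.0% and 62.7% in CTRL mice. Klre1 was seen in more cells of T9, 21.4% (17.9 to 25.2), than of T3, 9.77% (7.99 to 11.8). Fitted within a cluster alone, its log2 fold change was -0.57 ± 0.21 in T9 (adjusted p = 0.199) and -0.28 ± 0.19 in T3 (adjusted p = 0.452).

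No other member passed the adjusted threshold in this class, and 5 more had an unadjusted p under 0.05, which makes 6 of 19, where 23.7% of all genes had one. Klrb1a, the activating NKR-P1A, had 38.5 and 54.1 CPM in Trpv1-ADC mice and 26.5 and 27.4 CPM in CTRL mice (log2 fold change 0.70 ± 0.21, adjusted p = 0.0577). Klrh1 had 37.1 and 50.5 CPM in Trpv1-ADC mice and 76.1 and 57.0 CPM in CTRL mice (log2 fold change -0.67 ± 0.20, adjusted p = 0.0606). In both genes the groups lay apart. Klrh1 rested on T3, where it was -0.93 ± 0.26. In T9, with 0 UMIs in Trpv1-ADC mouse 2 and 16 to 23 in each of the others, the fitted value was 0.31 ± 1.01.

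Klrc1, Klrc2 and Klri1 did not pass either. Klrc1 had 34.3 and 30.1 CPM in Trpv1-ADC mice and 43.7 and 51.7 CPM in CTRL mice (log2 fold change -0.62 ± 0.20, adjusted p = 0.0706). Klrc2 had 55.3 and 86.9 CPM in Trpv1-ADC mice and 89.0 and 91.2 CPM in CTRL mice (log2 fold change -0.43 ± 0.18, adjusted p = 0.157). The groups did not overlap in either gene, but Klrc2 of Trpv1-ADC mouse 2 came close to the CTRL mice. Within T9 alone the values were -1.08 ± 0.35 for Klrc1 and -1.22 ± 0.31 for Klrc2 (adjusted p = 0.136 and 0.0580), and within T3 they were -0.14 and -0.20. Klri1 had 45.5 and 38.1 CPM in Trpv1-ADC mice and 23.2 and 30.2 CPM in CTRL mice (log2 fold change 0.58 ± 0.22, adjusted p = 0.122), again apart. The median log2 fold change of the members was -0.31 without Trpv1-ADC mouse 2 and 0.11 without Trpv1-ADC mouse 1. Over all genes it was -0.02 in each of these fits. Klrk1 had 89.6 and 204 CPM in Trpv1-ADC mice and 116 and 120 CPM in CTRL mice, which overlap. The summed level of 10 natural killer cell or ILC1 markers in this class was 2901 and 4810 CPM in Trpv1-ADC mice and 3630 and 3723 CPM in CTRL mice, so the Trpv1-ADC mice differed from each other more than the groups did. None of these 10 markers was at 0. They include Gzma, which is also on the marker list of intraepithelial-type T cells and leads cluster T9. The 8 markers of that list summed to 5403 and 8741 CPM in Trpv1-ADC mice and 7203 and 8321 CPM in CTRL mice. The part of either list in the members' values was not tested.

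**Figure D4:**
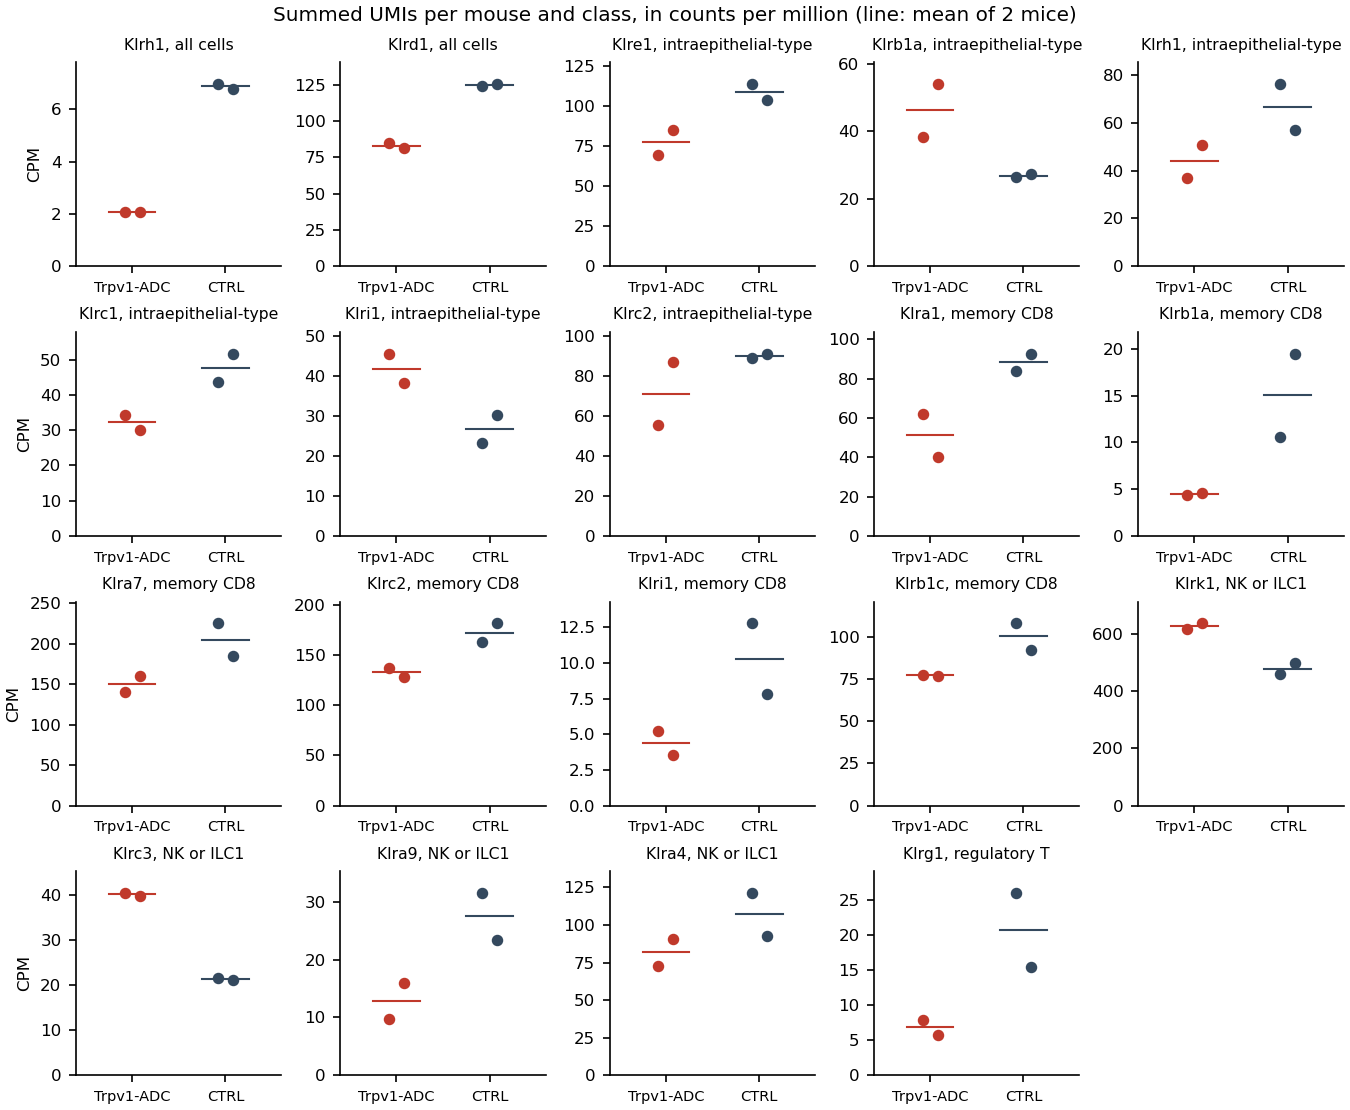
CPM of 19 members and classes in each mouse (points, Trpv1-ADC left, CTRL right; y axes start at 0). Klre1 in intraepithelial-type T cell-like cells lay at 69.3 and 85.1 CPM in Trpv1-ADC mice, against 113 and 103 CPM in CTRL mice.

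In natural killer cell or ILC1-like cells the summed level of the family differed between the groups by less than the spread between mice, and no member was called. The 27 members averaged 3334 ± 105 CPM in Trpv1-ADC mice and 3338 ± 143 CPM in CTRL mice (SD, n = 2 each). By edgeR 0 of 18 members passed, and 3 had an unadjusted p under 0.05 (9.08% of all genes did). DESeq2 gave an adjusted p to just 8 members and called 0 of these. Of all 7358 genes 0.0544% passed. The log2 fold changes were split 9 and 9 around 0 with a median of -0.04, and in 7 members the groups did not overlap (39.8% of all genes). In the test on simulated counts for this class, 56.4% of genes changed by 2-fold and 9.26% of those changed by 1.5-fold were called, so changes of that size can be missed. The spread of the simulated counts was set in advance and not taken from these mice.

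Klrk1 had 618 and 637 CPM in Trpv1-ADC mice and 461 and 497 CPM in CTRL mice (log2 fold change 0.41 ± 0.12, adjusted p = 0.319). Klrc3 had 40.5 and 39.9 CPM in Trpv1-ADC mice and 21.7 and 21.2 CPM in CTRL mice (log2 fold change 0.92 ± 0.30, adjusted p = 0.346). Klra9 had 9.71 and 16.0 CPM in Trpv1-ADC mice and 31.6 and 23.5 CPM in CTRL mice (log2 fold change -1.08 ± 0.40, adjusted p = 0.451). In all 3 genes the groups lay apart. Klra4 had 72.9 and 91.0 CPM in Trpv1-ADC mice and 121 and 92.7 CPM in CTRL mice, groups that nearly touch (log2 fold change -0.37 ± 0.22, adjusted p = 0.652). Different clusters held most of the class: I0 was 21.4% and 11.8% of it in Trpv1-ADC mice and 43.0% and 45.8% in CTRL mice, and I1 35.0% and 40.0% in Trpv1-ADC mice and 17.7% and 25.4% in CTRL mice. Klrk1 stood at 746 to 1004 CPM in I1 and at 391 to 540 CPM in I0. Within I1 its log2 fold change was -0.13 and within I6 -0.08, whereas it was 0.42 within I0 and 0.36 within I5.

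Memory CD8 T cell-like cells came from cluster T6 alone and, as given above, had mixed T cell markers. In this class all 17 members tested had a log2 fold change below 0, as did 49.6% of 8738 genes. Their median was -0.38, against 0.00 over all genes, and the summed level of the family was 1209 and 1187 CPM in Trpv1-ADC mice and 1529 and 1410 CPM in CTRL mice. By edgeR 0 members passed, where 0.183% of all genes did, 6 had an unadjusted p under 0.05 (6.86% of all genes did), and DESeq2 called 0 of 24. In 10 members both Trpv1-ADC mice lay below both CTRL mice (17.8% of all genes). Without CTRL mouse 1 the number below 0 was 13 of 16 and the median -0.24. The 10 natural killer cell or ILC1 markers summed to 1619 and 1750 CPM in Trpv1-ADC mice and 1997 and 2029 CPM in CTRL mice. None of them was at 0, and 1 of them, Eomes, is also on the marker list of memory CD8 T cells. Their part in the result was not tested.

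The lowest unadjusted p among the members in memory CD8 T cell-like cells was that of Klra1. Klra1 had 62.0 and 40.3 CPM in Trpv1-ADC mice and 83.8 and 92.6 CPM in CTRL mice (log2 fold change -0.82 ± 0.20, adjusted p = 0.137). It passed without CTRL mouse 1 (adjusted p = 0.0318) and without Trpv1-ADC mouse 1 (0.000319). Klra7 had 141 and 160 CPM in Trpv1-ADC mice and 225 and 185 CPM in CTRL mice (log2 fold change -0.44 ± 0.14, adjusted p = 0.396). Neither gene's groups overlap.

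A further 4 members had an unadjusted p under 0.05 there. Klrb1a had 4.37 and 4.59 CPM in Trpv1-ADC mice and 10.5 and 19.5 CPM in CTRL mice (log2 fold change -1.66 ± 0.47, adjusted p = 0.243), the opposite sign to intraepithelial-type T cell-like cells, a difference that was not tested. Klrc2 had 137 and 128 CPM in Trpv1-ADC mice and 163 and 181 CPM in CTRL mice (log2 fold change -0.37, adjusted p = 0.536). Klri1 and Klrb1c had log2 fold changes of -1.30 and -0.38 (adjusted p = 0.539 and 0.653). The groups lay apart in each of them.

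Regulatory T cell-like cells had low levels of the family, and 1 of 2 members tested, Klrg1, fell. In this class 0.491% of 9576 genes fell and 0.376% rose. Klrg1 had 11 and 11 UMIs in Trpv1-ADC mice and 44 and 25 UMIs in CTRL mice, which is 7.83 and 5.80 CPM in Trpv1-ADC mice and 26.0 and 15.5 CPM in CTRL mice. The log2 fold change was -1.64 ± 0.37 (SE) with an edgeR adjusted p of 0.0369, and the groups do not overlap. The call was lost without CTRL mouse 1 (adjusted p = 0.329) and without Trpv1-ADC mouse 2 (0.0960), and DESeq2 gave no adjusted p. It was also lost with the replicate block (0.154), without the robust fit (0.0665), with HTODemux (0.127), with tag doublets alone removed (0.0614), with the stricter cell filter (0.0625) and at Leiden resolution 2 (0.140), each time with a log2 fold change below 0. Most of these UMIs came from cluster T10, with 18.8 and 14.0 CPM in Trpv1-ADC mice and 57.6 and 53.4 CPM in CTRL mice; fitted alone it gave -1.82 ± 0.36 (adjusted p = 0.0724). T10 was 33.5% and 42.9% of the class in Trpv1-ADC mice and 35.7% and 28.4% in CTRL mice. Klrg1 is highest in ILC2-like cells, and 9 ILC2 markers, none at 0, summed in this class to 350 and 332 CPM in Trpv1-ADC mice and 559 and 499 CPM in CTRL mice. Other lists differed as well. The 8 regulatory T cell markers summed to 5140 and 4743 CPM in Trpv1-ADC mice and 5380 and 5671 CPM in CTRL mice. The 8 follicular helper T cell markers were higher, at 634 and 577 CPM in Trpv1-ADC mice and 485 and 523 CPM in CTRL mice. The part of these lists in the result was not tested. In ILC2-like cells themselves Klrg1 had 214 and 214 CPM in Trpv1-ADC mice and 182 and 232 CPM in CTRL mice, which overlap.

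In ILC3-like cells 0 of 9 members passed by edgeR (0.351% of 6832 genes did), and 1 had an unadjusted p under 0.05 (10.6% of all genes did); DESeq2 gave 2 members an adjusted p and called 0. The member with an unadjusted p under 0.05 was Klrk1, with 569 and 418 CPM in Trpv1-ADC mice and 377 and 371 CPM in CTRL mice (log2 fold change 0.42, adjusted p = 0.451). In the other 9 classes, 25 tests of members gave 0 calls, where 0.257% of all tests in those classes passed, and 3 had an unadjusted p under 0.05, each of Klrd1 (macrophage-like, naive CD8 T cell-like and follicular helper T cell-like cells), where 8.43% of all tests did. DESeq2 gave members an adjusted p in 4 of these classes and called 0. The difference between the contrasts of intraepithelial-type T cell-like and natural killer cell or ILC1-like cells was tested with the mouse as a block. None of 22 members passed, where 0.649% of 9400 genes did, and 7 had an unadjusted p under 0.05 (9.49% of genes did). Klre1 gave -0.77 ± 0.22 on the log2 scale (adjusted p = 0.134), and it passed without Trpv1-ADC mouse 2 (-1.01, adjusted p = 0.0180).

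Genes that work with these receptors were followed in 4 lists, of 20 adaptors and proximal signalling genes, 18 ligands, 16 lineage regulators and 14 other natural killer receptors. In intraepithelial-type T cell-like cells 3.91% of all genes rose and 3.97% fell. In intraepithelial-type T cell-like cells the adaptor list had 2 of 20 tested genes higher, Cd247, the zeta chain of the T cell receptor (260 and 310 CPM in Trpv1-ADC mice, against 190 and 200.5 CPM in CTRL mice, log2 fold change 0.48), and Plcg2, a phospholipase (0.69), with a median of 0.12. The ligand list had 2 of 9 higher, Clec2d, the ligand of the Klrb1b product (0.72), and Cdh1, E-cadherin and a ligand of Klrg1 (0.51), with a median of 0.21. Among 15 regulators Gata3 (0.75) and Runx3 (0.45) rose, and Zeb2 (-1.16), Bach2 (-0.90) and Irf8 (-0.76) fell, with a median of 0.08. Zeb2, a transcription factor of late effector cells, had 160 and 132 CPM in Trpv1-ADC mice, against 311 and 316 CPM in CTRL mice. Of 13 other receptors Cd226 (0.93) and Cd244a (0.73) rose, with a median of 0.24. All of these 11 genes have adjusted p under 0.05 by edgeR, and the median over all genes was 0.01. DESeq2 called 4 of the 43 list genes to which it gave an adjusted p in this class. Of all 3740 genes with one, it called 91 higher and 218 lower. Zeb2 is also a leading gene of cluster T9, whose share of the class was lower in both Trpv1-ADC mice. Cdh1 is a leading gene of cluster T3, whose share was higher in both (75.2% and 69.5%, against 63.0% and 62.7% in CTRL mice). The part of these shares in the called genes was not tested.

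In natural killer cell or ILC1-like cells 0 of 54 tested genes of the 4 lists passed by edgeR, where 0.0544% of all genes did. Of the 54, 12 had an unadjusted p under 0.05, as did 9.08% of all genes. DESeq2 called 0 of the 26 to which it gave an adjusted p. In memory CD8 T cell-like cells 0 of 53 passed by edgeR, where 0.183% of all genes did. Of the 53, 9 had an unadjusted p under 0.05, as did 6.86% of all genes, and DESeq2 called 0 of 60. The difference between the contrasts passed by edgeR for Zeb2 (-1.66 ± 0.23, adjusted p = 0.000291) and Bach2 (-0.64 ± 0.15, adjusted p = 0.0475), where 0.649% of all genes passed. In regulatory T cell-like cells Id2, a regulator of innate and effector lymphocytes, fell to 261 and 258 CPM in Trpv1-ADC mice, against 390 and 440.5 CPM in CTRL mice (log2 fold change -0.69), Ptpn6, the phosphatase that inhibitory receptors recruit, rose (1.09), and Havcr2 fell (-0.76). These were 3 of 47 list genes tested, in a class where 0.491% of all genes fell and 0.376% rose. In macrophage-like cells Havcr2 (-1.10) and Cd244a (-1.02) fell, 2 of 52 list genes tested. Fyn fell in B cell-like cells (-0.47), 1 of 41 list genes tested. Over the other 9 classes, which include macrophage-like and B cell-like cells, 0.257% of all tests passed. Slamf6 rose in the sum over all cells (0.60), 1 of 62 list genes tested, where 0.0479% of all genes rose and 0.197% fell.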

How the data were processed

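Single cells from 4 mice were read from 1 droplet run. The deposited matrices hold UMI counts per gene and barcode and counts per hashtag, whole numbers as the authors deposited them. Cell Ranger, Seurat and mm10 are named per the submitters' processing notes, without versions. The annotation, and how reads of near-identical genes and strands were treated, are not given in the sources used here. The labels disagree on the chemistry (3' in the protocol, 5' in the design text).

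The cell filter (at least 500 UMIs and 200 genes, no more than 10% mitochondrial) passed 22729 of 23063 barcodes, and 19571 had the tag of 1 mouse (at least 10 counts and at least 3 times the next). Scrublet (scanpy 1.11.5, threshold 0.375) removed 2052 of these and called 1354 of 2997 tag doublets, so doublets of a mouse with itself remain in part. Cells were clustered by Leiden (leidenalg 0.10.2, resolution 1, 30 principal components of 2000 variable genes without Klr genes) and named from marker lists. For each mouse and class the counts were added up, and edgeR 4.0.16 (TMM, filterByExpr, robust quasi-likelihood fit; R 4.3.3) gave the tests, Trpv1-ADC over CTRL, with the Benjamini-Hochberg adjustment over all genes tested in a class at 0.05. All p are two-sided. Each SE of a log2 fold change is the size of that fold change over the square root of the F statistic of its test. The labels do not say how the mice of a group differ beyond a number, and p values measure the spread between these mice. On simulated counts with known changes, 88.9% of genes changed by 4-fold, 76.6% by 2-fold and 38.7% by 1.5-fold were called in the sum over all cells, and 90.0%, 45.3% and 18.2% in intraepithelial-type T cell-like cells. The changed genes had at least 20 UMIs. The simulated spread was the same for every gene and class and was not estimated from these mice, so the rates for the real counts can differ.

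Values per mouse are given for each member past the threshold and then for members by raw p until at least 4 were described in the intraepithelial-type, natural killer or ILC1 and memory CD8 classes. Listed genes other than members are named where they passed, at most 4 per list and class. The members, lists, markers and tests were chosen with earlier results of these data known. Alternatives were DESeq2 1.42.0, other scaling and filters, HTODemux of Seurat 5.3.0, other doublet and cell filters, other clustering, the replicate block and leaving out each mouse; fits within clusters and equal cluster shares were added after seeing the data. Exon words of 50 bases were compared over all annotated genes of GENCODE vM21, and promoters were taken from RefSeq on GRCm38.p6 (24 of 27 members matched).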

Additional observations from a re-analysis of the deposited data

How the results depend on the processing

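The number of members called moved with the settings more than their fold changes did. In the sum over all cells 2 members were called (0.197% of all genes were lower), against 11 with DESeq2 (2.85%), 15 without a filter on low counts (2.15%), 7 with the replicate block (2.07%), and 0 without the robust fit, with the stricter cell filter (1000 UMIs, 500 genes, 5% mitochondrial) or without any single mouse (range 0 to 0). In intraepithelial-type T cell-like cells 1 was called, lower (3.97% of all genes fell and 3.91% rose). With DESeq2, with tag doublets alone removed or with Klr genes allowed in clustering it was 0. With library size alone 1 other member was called (Klrb1a, higher, where 5.16% of all genes rose). With HTODemux 2 were called, each lower (3.57% fell and 3.64% rose). Without a filter on low counts it was 4, all lower (3.78% fell and 1.97% rose). At Leiden resolution 2 it was 4, with 2 lower and 2 higher (4.23% fell and 3.97% rose). When a mouse was left out, the median log2 fold change of the members ran from -0.31 to 0.13. In memory CD8 T cell-like cells 0 were called (0.183% of all genes were). Without a filter on low counts 1 was called, lower, where 22 of 20291 genes fell. With the replicate block it was Klra1, lower (edgeR adjusted p = 0.0335), where 21 of 8738 genes fell. When a mouse was left out, the median log2 fold change of the members ran from -0.58 to -0.24. In regulatory T cell-like cells 1 was called, against 0 without the robust fit, with the replicate block, HTODemux, tag doublets alone removed, the stricter cell filter or resolution 2, and 0 to 1 when a mouse was left out. In ILC3-like cells 0 were called (0.351% of all genes were). Without a filter on low counts 1 was called, lower, where 94 of 18861 genes fell. When a mouse was left out, the median log2 fold change of the members ran from -0.40 to 0.01. For the difference of the contrasts 0 were called (0.649% of all genes were). At resolution 2 it was 2, each below 0, where 71 of 9245 genes were called below 0. When a mouse was left out, the median difference of the members ran from -0.15 to 0.30. In the other 9 classes 0 were called, against 2 without a filter on low counts and 0 to 2 when a mouse was left out. In natural killer cell or ILC1-like cells 0 were called under every alternative run (0 to 0 when a mouse was left out). The causes were not tested.

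The sign turned in 4 fits within a cluster: Klrh1 (0.31) and Klri1 (-0.061) in T9, and Klrk1 in I1 (-0.13) and I6 (-0.077). Of the other values of single members, 234 kept their direction and call, 30 lost a call, 19 gained one and 20 moved by more than the spread. The correlation over genes of the deviations of same-numbered mice ran from -0.058 in ILC3-like to 0.138 in plasma cell-like cells (0.048 in all cells), so with 2 pairs the numbers name mice, and the replicate block changed no call other than those given here. cDC2-like cells with HTODemux, with tag doublets alone removed or with the stricter filter, and plasma cell-like cells with these and at resolution 2, were not run, because the class did not form with 20 cells in every mouse.

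Depth limits the scarce members: Klrg1 in regulatory T cell-like cells rests on 11 UMIs in each Trpv1-ADC mouse, and Klra10 on 35 UMIs in all barcodes. With 2 mice per group the spread is known from few animals, and fits without a mouse assume that the lone animal varies like the others.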

Other observations

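The pseudogene Klra13-ps, which was not counted as a member, had 2086 UMIs over all barcodes, more than Klra2 with 1350. Klra7 shared 12.3% of its 50-base words with it. Klra14-ps had 134 UMIs, and Klra8 shared 20.4% of its words with that pseudogene. A cluster of 6 cells, split off from the innate lymphocytes and left unnamed, had 0.0342% of all cells and 0.220% of the members' UMIs. Its leading genes included Apoe, C1qa, C1qb and C1qc, which are on the macrophage marker list. Non-immune-like cells, which the sort for CD45 should have removed, were 1.58% of cells and held 1.31% of the members' UMIs.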
